A study of Homo sapiens with 42 samples.

Results

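The 28 genes described here make or regulate cholesterol and fatty acids: HMGCS1, MVK, PMVK, MVD, IDI1, FDPS, FDFT1, SQLE, LSS, CYP51A1, TM7SF2, MSMO1, NSDHL, HSD17B7, EBP, SC5D, DHCR7, INSIG1, SREBF1, SREBF2, STARD4, SCD, FASN, ACACA, ACLY, ELOVL6, FADS1 and FADS2. Their chromatin accessibility was read in EGFR mutant lung adenocarcinoma lines, as every region that the deposited annotation assigns to 1 of these 28 symbols among 21595 symbols in all. PC9 had 102 such regions among 69565 annotated, H1975 had 117 among 76952, HCC827 had 52 among 30709 and HCC2935 had 92 among 65264. Regions within 1 kb of a transcription start are called promoter regions, and the one with the highest mean level in a line is called the gene's main promoter. PC9 gave a main promoter for 24 members, H1975 for 25, HCC827 for 21 and HCC2935 for 23, and no region of any table was assigned to ACACA, the carboxylase that commits acetyl-CoA to fatty acids.

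The study holds 42 ATAC-seq libraries in 14 groups of 3, stated to be biological triplicates, where ATAC-seq counts the fragments that a transposase releases from open chromatin. Control cells spent 21 days without drug and 3 days in DMSO, and drug tolerant persister (DTP) cells spent 24 days in 500 nM osimertinib, an EGFR inhibitor. Combo cells spent 21 days in 500 nM osimertinib and then 3 days in 150 nM AZD5153, a small molecule inhibitor, and it is not stated whether osimertinib stayed on during those 3 days. AZD5153 cells, in PC9 and H1975 alone, spent 21 days without drug and then 3 days in 150 nM AZD5153. All groups are cultures of established lines, and the extraction protocol attached to the samples describes an H3K27ac immunoprecipitation although titles and design give ATAC-seq.

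Cholesterol is built from acetyl-CoA through mevalonate, farnesyl diphosphate, squalene and lanosterol, and fatty acids are built from the same acetyl-CoA, then elongated and desaturated. The genes of both routes are switched on by SREBP transcription factors, which SREBF1 and SREBF2 encode. INSIG1 holds the precursors in the endoplasmic reticulum when sterols are plentiful. SREBPs bind sterol regulatory elements in promoters and act there together with NF-Y, which binds CCAAT, and Sp1, which binds GGGCGG.

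Windows of 300 bases around the RefSeq transcription starts (250 before and 50 after, GRCh38.p14) were read for 25 of the 28 members. CCAAT, on either strand, stood in 24 of the 34 windows of these 25 genes, against 34.6% of all 35116 promoter windows, and 20 of the 25 genes had it in at least 1 window. GGGCGG, on either strand, stood in 30 of the 34 windows (24 genes), against 45.0% of all windows. The E-box CACGTG stood in 4 of the 34 windows (INSIG1, LSS and SC5D), against 7.26% of all windows. The sterol regulatory element TCACNCCAC was found in 1 of the 34 windows, that of SREBF2, against 1.13% of all windows, and it overlapped none of the other motifs there. A match of letters is a description of the window and not a binding site. The windows of the 7 genes whose promoters carry most of the accessibility results below are shown 5′ to 3′ on the gene's strand, with CCAAT or ATTGG and the sterol regulatory element in capitals.
SREBF2, chr22:41832855-41833154, plus strand: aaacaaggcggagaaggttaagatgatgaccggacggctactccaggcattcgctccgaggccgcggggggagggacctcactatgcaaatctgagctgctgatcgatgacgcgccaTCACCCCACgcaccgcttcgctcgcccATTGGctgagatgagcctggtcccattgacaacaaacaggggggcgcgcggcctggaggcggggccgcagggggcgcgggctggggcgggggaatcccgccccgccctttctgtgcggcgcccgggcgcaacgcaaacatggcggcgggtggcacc
HMGCS1, chr5:43313363-43313662, minus strand: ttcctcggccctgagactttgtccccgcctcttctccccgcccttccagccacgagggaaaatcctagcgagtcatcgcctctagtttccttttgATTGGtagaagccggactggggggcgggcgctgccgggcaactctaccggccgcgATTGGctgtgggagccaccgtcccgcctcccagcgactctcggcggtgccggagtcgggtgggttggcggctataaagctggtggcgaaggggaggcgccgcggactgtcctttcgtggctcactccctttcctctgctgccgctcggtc
FDPS, chr1:155308616-155308915, plus strand: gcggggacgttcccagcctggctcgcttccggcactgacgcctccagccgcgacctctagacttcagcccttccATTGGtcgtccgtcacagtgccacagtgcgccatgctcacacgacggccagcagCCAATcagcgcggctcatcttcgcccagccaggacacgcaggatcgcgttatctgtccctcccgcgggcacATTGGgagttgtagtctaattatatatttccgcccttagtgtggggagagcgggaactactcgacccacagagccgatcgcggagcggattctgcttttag
MSMO1, chr4:165327419-165327718, plus strand: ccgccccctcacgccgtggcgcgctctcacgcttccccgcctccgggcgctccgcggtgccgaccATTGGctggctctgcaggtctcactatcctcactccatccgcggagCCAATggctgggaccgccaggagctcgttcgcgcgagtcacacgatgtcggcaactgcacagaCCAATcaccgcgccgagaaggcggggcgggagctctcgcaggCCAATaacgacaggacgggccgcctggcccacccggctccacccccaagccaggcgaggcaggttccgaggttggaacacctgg
HSD17B7, chr1:162790452-162790751, plus strand: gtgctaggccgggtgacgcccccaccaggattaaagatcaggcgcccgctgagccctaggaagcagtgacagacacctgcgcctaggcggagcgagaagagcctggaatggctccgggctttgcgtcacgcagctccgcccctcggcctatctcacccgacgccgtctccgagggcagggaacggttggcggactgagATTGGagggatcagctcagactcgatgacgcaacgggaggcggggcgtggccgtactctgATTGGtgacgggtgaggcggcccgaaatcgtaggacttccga
STARD4, chr5:111512486-111512785, minus strand: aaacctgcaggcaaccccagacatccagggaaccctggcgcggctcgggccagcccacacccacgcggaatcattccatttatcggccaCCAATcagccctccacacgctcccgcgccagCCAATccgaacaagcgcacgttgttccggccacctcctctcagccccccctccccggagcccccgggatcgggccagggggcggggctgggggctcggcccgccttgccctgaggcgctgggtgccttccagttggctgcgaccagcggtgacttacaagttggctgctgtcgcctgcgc
INSIG1, chr7:155297628-155297927, plus strand: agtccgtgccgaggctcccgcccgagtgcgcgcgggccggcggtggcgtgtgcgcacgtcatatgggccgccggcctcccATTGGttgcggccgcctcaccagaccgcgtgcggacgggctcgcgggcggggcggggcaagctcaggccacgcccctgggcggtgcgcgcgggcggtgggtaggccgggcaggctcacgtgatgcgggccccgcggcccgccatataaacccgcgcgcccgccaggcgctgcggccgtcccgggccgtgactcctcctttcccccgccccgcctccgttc

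MSMO1 held 4 CCAAT or ATTGG matches, FDPS 3, and HMGCS1, HSD17B7 and STARD4 2 each. In SREBF2 the sterol regulatory element began 133 bases before the start and the ATTGG 106 bases before it. The main promoter regions of these 7 genes, each 502 bases long, overlapped the windows shown in every line except INSIG1 in HCC2935, where the main promoter lay downstream.

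Levels are given as CPM, the fragment count of a region scaled to a common library total, with TMM factors between libraries. Total counts were 3968690 to 10062505 in PC9, H1975 and HCC2935 and 1724680 to 4242868 in HCC827. PC9 had a biological coefficient of variation of 0.988% and H1975 of 3.20%, whereas HCC2935 had 10.1% and HCC827 45.0%. The PC9 and H1975 libraries thus differed by little more than counting noise, so their p-values measure only the spread between these libraries. For that reason counts are also given with the 3 libraries of a group summed into 1 and the dispersion of HCC2935 used in place of their own. In HCC827, edgeR called 0 of 51 tested member regions in either comparison, beside 0.0219% of all regions in DTP and 0% in combo, and DESeq2 and limma voom also called 0. At an unadjusted p under 0.05, edgeR gave 1 member region higher and 3 lower in DTP, and 0 and 2 in combo. The share of all regions at that unadjusted threshold is not given here, so these counts are not read as a result about the members. With the replicate number as a block, edgeR called 1 member region in DTP, lower (all regions 2.16% higher and 1.72% lower), and 0 in combo (0% and 0.0304%). Neighbourhoods also moved: the median change of all regions within 5 Mb of a member's main promoter ran from −0.90 to 1.56 between the H1975 libraries labelled AZD5153 and control, and was beyond ±0.5 at 8 of 25 members. In HCC2935, DTP against control, it ran from −0.82 to 0.58 and was beyond ±0.5 at 7 of 23. In the H1975 interaction it ran from −1.43 to 0.86 and was beyond ±0.5 at 8 of 25. In the other comparisons it was within ±0.5 at all members' main promoters. Promoters of the epithelial genes EPCAM, KRT8, KRT18, CDH1 and KRT19 stood at the 56.7th percentile of promoters or above in all 4 lines. Lung genes were less uniform. NKX2-1 stood at the 48.5th percentile for PC9 and between the 72.9th (HCC827) and the 84.7th (HCC2935) for the other lines. SFTPB stood at the 7.45th for HCC827 and the 56.0th for H1975, with no tested promoter region elsewhere. NAPSA stood at the 46.9th for H1975 and the 59.6th for HCC2935, again with none elsewhere. Of 5 genes of other cell types, the leukocyte genes PTPRC and CD3E and the hepatocyte gene ALB had no tested promoter region. The endothelial gene PECAM1 stood at the 17.9th percentile in PC9 and the 13.1th in H1975 and had none in the other lines, while COL1A1, a collagen of fibroblasts, stood at the 69.0th to 86.2th percentile in all 4 lines. Its part in the results was not tested.

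The promoters of these genes were among the more accessible of the genome in all 4 lines. Over the 14 groups the members' median main promoter stood between the 81.5th and the 88.9th percentile of all promoter regions, weaker secondary ones included. Set against all genes' main promoters, 11 of 24 members were in the most accessible quintile in PC9 and 10 of 25 in H1975. In HCC827 that was 10 of 21 and in HCC2935 12 of 23. Percentiles below are of all promoter regions. In the control groups, the main promoters of HMGCS1 (HMG-CoA synthase), FDPS (farnesyl diphosphate synthase), MSMO1 (methylsterol monooxygenase), INSIG1 and SREBF2 lay at or above the 91.8th percentile in every line. ACLY, which makes cytosolic acetyl-CoA from citrate, lay at or above the 94.7th. At the low end were ELOVL6 (a fatty acid elongase) at the 24.6th to 40.8th percentile in 3 lines, NSDHL at the 28.6th in PC9 and LSS at the 11.5th in H1975. For NSDHL, LSS and MVK that low rank belongs to a secondary start: the region over the RefSeq start was assigned to a neighbouring gene in all 4 lines, to CETN2, MCM3AP-AS1 and MMAB. The regions over the starts of MVD and FADS2 were likewise assigned to SNAI3-AS1 and FADS1. The main promoters of FADS2 at chr11:61827727-61828228 in H1975, of SREBF1 in PC9 and of ELOVL6 in HCC2935 also lie at secondary starts, and the H1975 region that matched the PC9 main promoter of SQLE was not assigned to SQLE.

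**Figure D1:**
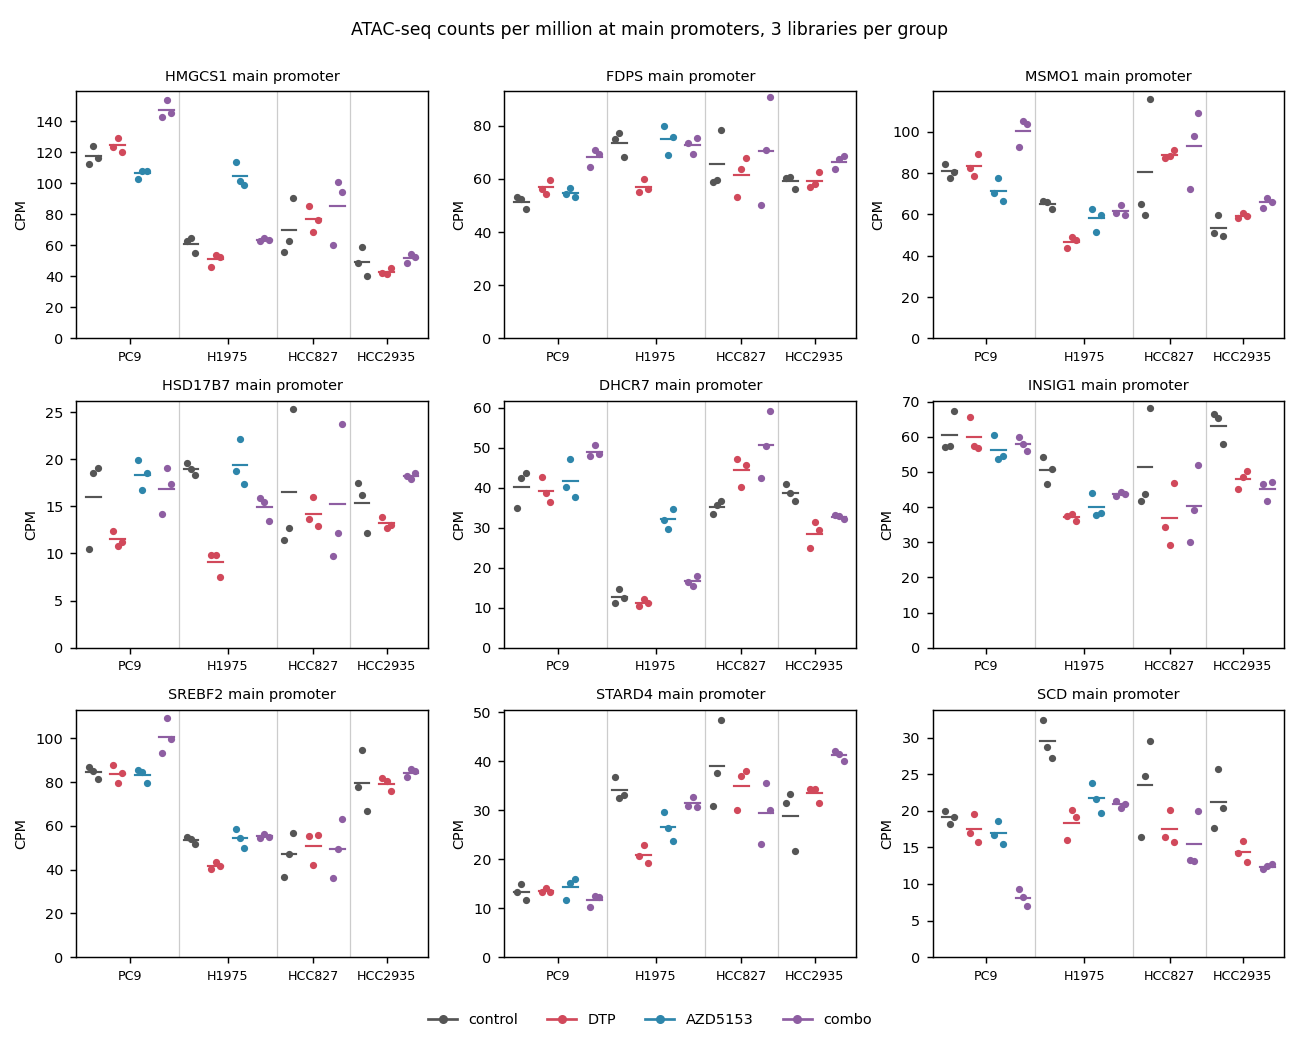
Level of the main promoter of 9 members in every library, in CPM, across the 14 groups; points are libraries and horizontal lines are group means. In H1975 the DTP libraries of HSD17B7, STARD4, MSMO1 and SREBF2 lie below all control libraries and below all combo libraries.

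The first question was what 24 days of osimertinib left at these promoters. In H1975 most of them were lower in DTP cells than in control: 15 of 25 main promoters were lower and 3 higher by edgeR's quasi-likelihood test with Benjamini-Hochberg adjustment, against 27.0% lower and 19.6% higher among all genes' main promoters. Highly accessible promoters fell more often in general in this comparison, so the members in the most accessible quintile are also set beside that quintile: 9 of 10 were lower, against 45.5% of all genes there. In PC9, 0 of 24 were higher and 2 lower (all genes 13.5% and 10.4%), and in HCC2935, 4 of 23 were higher and 8 lower (all genes 22.1% and 9.92%). With libraries summed, 1 was higher and 4 lower in H1975 (all promoter regions 14.1% and 11.2%), 0 and 0 in PC9 (5.77% and 4.27%), and 1 and 3 in HCC2935 (13.6% and 7.64%). Summed shares for promoters, here and below, include weaker secondary promoter regions, and none was counted for main promoters alone. With offsets that follow the level of a region (loess offsets, chosen after seeing the data), the H1975 count was 3 higher and 8 lower, against 35.6% and 15.2% of all genes. In PC9 it was 3 higher (FADS1, FDPS and SC5D) and the same 2 lower, against 18.9% and 7.42%, and in HCC2935 it was 4 and 8, against 20.4% and 11.9%.

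In the mevalonate branch of H1975, 3 of 5 main promoters were lower and 1 higher. HMGCS1 stood at 62.6, 64.7 and 54.9 CPM in control and at 46.3, 54.0 and 52.3 CPM in DTP, a log2 change of −0.25 ± 0.07 (SE, n = 3 against 3, edgeR adjusted p = 0.000846). FDPS stood at 75.1, 77.2 and 68.1 CPM in control and at 55.2, 60.1 and 56.1 CPM in DTP (−0.36 ± 0.06, edgeR adjusted p = 2.5e-07). The groups did not overlap for either gene, and with loess offsets the changes were −0.01 and −0.12, neither past the threshold. IDI1, the isomerase that makes dimethylallyl diphosphate, fell by 0.26 on the log2 scale (edgeR adjusted p = 0.00428). MVK, mevalonate kinase, rose at its secondary start by 0.68 ± 0.16 (edgeR adjusted p = 9.7e-05), while the region over its RefSeq start, assigned to MMAB, changed by −0.29 (edgeR adjusted p = 0.00143). The region over the start of MVD, which decarboxylates mevalonate diphosphate, stood at 45.9, 47.6 and 45.6 CPM in control and at 31.5, 36.1 and 34.4 CPM in DTP (−0.45 ± 0.07, edgeR adjusted p = 6.19e-08).

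In the sterol branch of H1975, 5 of 10 main promoters were lower and 2 higher. HSD17B7, a ketosteroid reductase of the late pathway, had the largest fall among the members of this branch: 19.6, 19.0 and 18.3 CPM in control against 9.85, 9.87 and 7.50 CPM in DTP, −1.07 ± 0.12 (edgeR adjusted p = 3.9e-15). MSMO1 stood at 66.3, 66.2 and 62.4 CPM in control and at 43.8, 49.2 and 47.7 CPM in DTP, −0.47 ± 0.07 (edgeR adjusted p = 3.22e-10). The control and DTP libraries were separate for both, and both stayed past the threshold with loess offsets. FDFT1 (squalene synthase, −0.38), SC5D (sterol desaturase, −0.29) and EBP (sterol isomerase, −0.21) were also lower, with overlapping libraries for EBP. CYP51A1, lanosterol demethylase, rose by 0.25 ± 0.09 (edgeR adjusted p = 0.0176), and SQLE, squalene epoxidase, rose at its weak secondary region by 0.68 ± 0.21 (edgeR adjusted p = 0.00309) in a neighbourhood whose median rose by 0.41. With the regional median taken away SQLE changed by 0.38 (edgeR adjusted p = 0.113). The H1975 region that matched the PC9 main promoter of SQLE, not assigned to SQLE, changed by −0.08. DHCR7, which makes cholesterol from its last precursor, was at −0.19 ± 0.13 and TM7SF2, a sterol reductase, at −0.11 ± 0.10, neither past the threshold.

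Among the regulators in H1975, 3 of 4 were lower. STARD4, a cholesterol carrier of the cytosol, stood at 36.8, 32.4 and 33.2 CPM in control and at 20.6, 22.8 and 19.1 CPM in DTP, −0.71 ± 0.09 (edgeR adjusted p = 8.88e-13), although its neighbourhood rose by 0.33. SREBF2 stood at 54.7, 53.8 and 51.9 CPM in control and at 40.3, 43.3 and 41.5 CPM in DTP, −0.36 ± 0.07 (edgeR adjusted p = 4.47e-06). INSIG1 stood at 54.3, 46.5 and 50.8 CPM in control and at 37.4, 38.0 and 36.0 CPM in DTP, −0.44 ± 0.07 (edgeR adjusted p = 3.91e-08). In each of these genes every DTP library lay below every control library, and STARD4 and INSIG1 but not SREBF2 stayed past the threshold with loess offsets. SREBF1, which encodes the form most tied to fatty acid genes, was at −0.11 ± 0.10, not past the threshold.

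In the fatty acid branch of H1975, 4 of 6 were lower. SCD, which desaturates stearate, stood at 32.5, 28.8 and 27.2 CPM in control and at 16.0, 20.1 and 19.1 CPM in DTP, −0.67 ± 0.09 (edgeR adjusted p = 1.25e-10). FASN, fatty acid synthase, stood at 24.3, 26.5 and 21.6 CPM in control and at 19.7, 17.4 and 14.7 CPM in DTP, −0.49 ± 0.10 (edgeR adjusted p = 7.44e-06). The secondary start of FADS2, a fatty acid desaturase, went from 8.97, 9.01 and 9.98 CPM to 4.73, 3.63 and 2.91 CPM, −1.32 ± 0.18 (edgeR adjusted p = 1.2e-11). The DTP libraries lay below all control libraries for all 3 genes, with loess offsets all 3 stayed past the threshold, and ACLY at −0.26 did not.

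In HCC2935, 4 of the 8 lower promoters lay in the fatty acid group, where 4 of 6 were lower and 0 higher. FADS2 stood at 43.7, 50.5 and 35.1 CPM in control and at 20.9, 25.1 and 18.3 CPM in DTP (−1.002 ± 0.14, edgeR adjusted p = 9.77e-08), in a neighbourhood that changed by −0.63. With that regional median taken away the change was −0.41 (edgeR adjusted p = 0.0287). SCD stood at 17.7, 25.7 and 20.3 CPM in control and at 14.2, 15.9 and 13.0 CPM in DTP (−0.54 ± 0.16, edgeR adjusted p = 0.00762), with a neighbourhood at −0.21. FADS1, a second desaturase beside FADS2, fell by 0.47 within the same FADS2 neighbourhood at −0.63. ELOVL6 fell by 0.98 at its secondary start, against a neighbourhood that rose by 0.40. TM7SF2 at −0.64, DHCR7 at −0.44 and INSIG1 at −0.40 were lower within neighbourhoods at −0.67, −0.67 and −0.82, and TM7SF2 changed by −0.05 (edgeR adjusted p = 0.814) once the regional median was removed. Of the 4 that were higher, PMVK (phosphomevalonate kinase) stood at 9.61, 15.1 and 14.1 CPM in control and at 19.9, 21.8 and 18.3 CPM in DTP, 0.67 ± 0.17 (edgeR adjusted p = 0.00179). SC5D at 0.54 and EBP at 0.43 were higher within neighbourhoods at 0.58, and SC5D changed by −0.02 with the regional median removed. The part of these neighbourhoods in the results was not tested.

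In PC9 the 2 lower promoters were HSD17B7 and SREBF1. HSD17B7 stood at 10.5, 18.5 and 19.1 CPM in control and at 12.4, 10.8 and 11.3 CPM in DTP, −0.51 ± 0.16 (edgeR adjusted p = 0.00739), with 1 control library below the DTP libraries. SREBF1 fell by 0.40 at its secondary start (edgeR adjusted p = 0.00735; 0.248 with libraries summed). The promoters that fell in H1975 were nearly flat here: MSMO1 was at 0.05 ± 0.07, STARD4 at 0.03 ± 0.16, SREBF2 at −0.01 ± 0.07, INSIG1 at −0.02 ± 0.08 and SCD at −0.13 ± 0.14, none past the threshold.

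Whether the lines differed in their DTP change was tested directly, by the heterogeneity of the 4 lines' own estimates over promoter regions matched between their tables. The test called 21 of 37 member promoter regions, against 37.6% of 17359 matched promoter regions. MSMO1 differed most, with Q = 39.0 (3 degrees of freedom, adjusted p = 1.76e-07). Its change was −0.47 in H1975, beside 0.05 for PC9, 0.14 for HCC827 and 0.15 for HCC2935. STARD4 followed with Q = 37.7 (adjusted p = 3.26e-07), where the change was −0.71 in H1975 beside 0.03, −0.15 and 0.20 for the other lines in the same order. FDPS came next, with Q = 25.8 (adjusted p = 6e-05) and its called fall in H1975, at −0.36. These Q values rest on TMM-scaled estimates and on each line's own spread between libraries. In PC9 and H1975 that spread was little more than counting noise, so Q can overstate a difference between lines. Q was computed neither with loess offsets nor with libraries summed. With loess offsets the H1975 changes were −0.24 (MSMO1), −0.52 (STARD4) and −0.12 (FDPS, not past the threshold). Across lines, 5 of 26 genes had a main promoter lower in DTP in at least 2 lines: HSD17B7 in PC9 and H1975, and IDI1, INSIG1, FADS2 and SCD in H1975 and HCC2935. For INSIG1 these are different regions: at the start itself HCC2935 stood at 44.3, 50.8 and 47.9 CPM in control and at 40.8, 50.1 and 48.5 CPM in DTP, with overlapping libraries. No gene was higher in 2 lines, and EBP, SC5D and SREBF1 were higher in one line and lower in another, SREBF1 at different starts. LSS and NSDHL had a main promoter in 1 line only. The share of all genes lower in at least 2 lines was not counted. In each line alone it was 10.4% (PC9), 27.0% (H1975) and 9.92% (HCC2935).

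**Figure D2:**
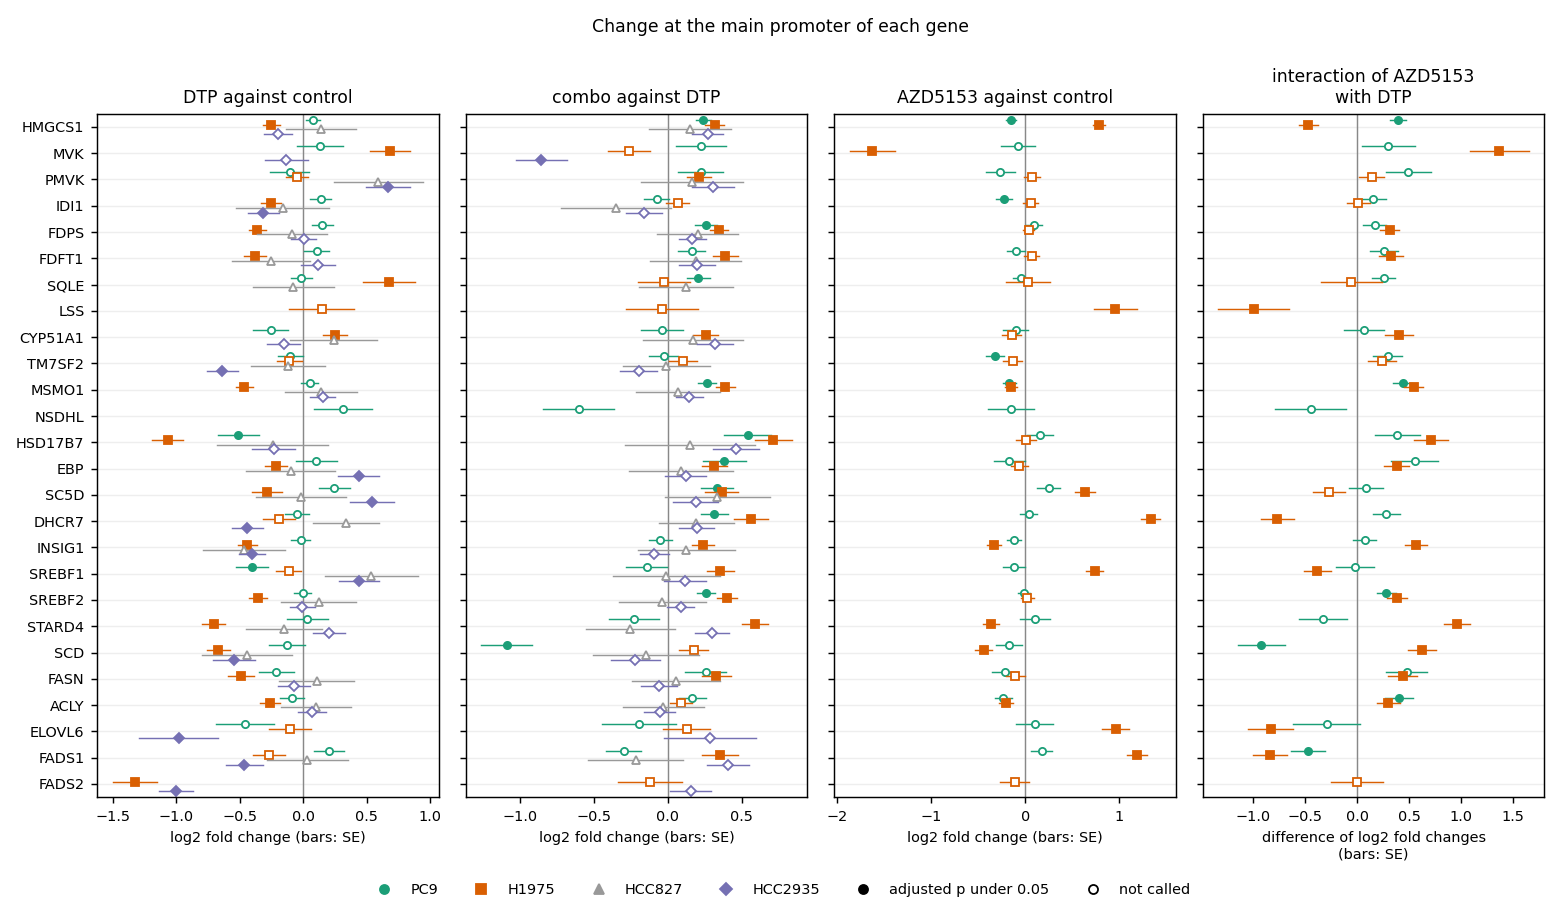
Log2 change of each member's main promoter with its SE, by comparison and line; filled points are past an adjusted p of 0.05. In H1975 the DTP changes lie mostly below 0 (15 lower, 3 higher) and the combo changes mostly above 0 (16 higher, 0 lower).

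The second question was how combo cells differed from DTP cells. This comparison shares the DTP libraries with the one above, so that a low DTP value enters both with opposite sign. It is not stated whether osimertinib stayed on with AZD5153. An effect of AZD5153 and one of osimertinib withdrawal can therefore not be told apart in combo. In H1975, 16 of 25 main promoters were higher in combo and 0 lower, against 38.0% and 4.75% of all genes. In PC9, 9 of 24 were higher and 1 lower, against 23.6% and 7.26%. Accessible promoters rose more often in general here too: in the most accessible quintile, 8 of 10 members were higher in H1975 beside 70.0% of all genes, and 6 of 11 in PC9 beside 49.6%. These shares are close to that background, and loess offsets left 3 of the 16 rises in H1975 and 1 of the 9 in PC9. In PC9 the balance turned, with 1 higher and 4 lower under loess offsets against 12.1% and 9.33% of all genes: the falls were SCD, FADS1 at −0.40, IDI1 at −0.26 and INSIG1 at −0.26. With libraries summed, 1 was higher and 0 lower in H1975 (all promoter regions 1.99% and 1.48%), and 0 higher and 1 lower in PC9 (2.25% and 2.80%).

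HSD17B7 was the member whose rise held in both lines with loess offsets. In H1975 it went from 9.85, 9.87 and 7.50 CPM in DTP to 15.9, 15.5 and 13.4 CPM in combo, 0.72 ± 0.12 (edgeR adjusted p = 1.31e-06), below the 18.3 to 19.6 CPM of control. In PC9 it went from 12.4, 10.8 and 11.3 CPM to 14.1, 19.1 and 17.3 CPM, 0.54 ± 0.16 (edgeR adjusted p = 0.00606). The combo libraries lay above all DTP libraries in both lines. With libraries summed the edgeR adjusted p was 0.0466 in H1975 and 0.192 in PC9, where DESeq2 did not call the rise either.

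STARD4 and DHCR7 were the other members whose H1975 rise held with loess offsets. STARD4 went from 20.6, 22.8 and 19.1 CPM to 30.8, 32.7 and 30.6 CPM, 0.59 ± 0.09 (edgeR adjusted p = 1.52e-08). DHCR7 went from 10.4, 12.1 and 11.1 CPM to 16.4, 15.5 and 17.9 CPM, 0.57 ± 0.11 (edgeR adjusted p = 4.18e-05). Neither H1975 rise was past the threshold with libraries summed (edgeR adjusted p = 0.0894 for STARD4 and 0.133 for DHCR7). In PC9 STARD4 was at −0.23 ± 0.17, not past the threshold, and DHCR7 rose by 0.32 ± 0.09 (edgeR adjusted p = 0.00416), or 0.14 with loess offsets (edgeR adjusted p = 0.261).

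The genes higher in combo in both PC9 and H1975 were DHCR7, EBP, FDPS, HMGCS1, HSD17B7, MSMO1, SC5D and SREBF2, 8 of 26. Of these 26, FADS2, LSS and NSDHL had a main promoter in only 1 of the 2 lines. The share of all genes higher in both lines was not counted. In each line alone it was 23.6% (PC9) and 38.0% (H1975). HMGCS1 in PC9 went from 123, 129 and 120 CPM in DTP to 143, 154 and 145 CPM in combo, 0.24 ± 0.05 (edgeR adjusted p = 7.21e-05), and was at −0.07 with loess offsets. SREBF2 in PC9 went from 88.0, 79.4 and 84.1 CPM to 93.4, 109 and 99.6 CPM, 0.26 ± 0.06 (edgeR adjusted p = 0.000477), and was at −0.01 with loess offsets. In H1975 MSMO1 went from 43.8, 49.2 and 47.7 CPM to 60.5, 64.7 and 59.8 CPM (0.39 ± 0.07, edgeR adjusted p = 6.61e-07) and was at 0.11 with loess offsets. All these combo libraries lay above the DTP libraries of the same line, yet the direction or size of the change relative to other promoters of like level depends on the scaling. INSIG1 and PMVK, which rose in H1975 by 0.24 and 0.21, were likewise at −0.02 and −0.01 with loess offsets.

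SCD moved the other way in PC9. It stood at 17.01, 19.6 and 15.8 CPM in DTP and at 9.27, 8.22 and 6.93 CPM in combo, −1.09 ± 0.17 (edgeR adjusted p = 2.75e-08), with −1.12 under loess offsets and an adjusted p of 0.00285 with libraries summed. AZD5153 alone left it at 16.8, 18.6 and 15.5 CPM, close to the 20.02, 18.3 and 19.1 CPM of control. The interaction, the change of combo against DTP minus that of AZD5153 against control, was −0.92 ± 0.22 (edgeR adjusted p = 0.000897). In H1975 SCD changed by 0.18 ± 0.10 in combo and in HCC2935 by −0.22 ± 0.17, neither past the threshold.

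In HCC2935, 1 of 23 main promoters was lower in combo and 0 higher, against 2.30% and 6.09% of all genes. It was the secondary start of MVK, which went from 15.8, 16.9 and 16.2 CPM in DTP to 10.8, 7.78 and 8.66 CPM in combo, −0.85 ± 0.17 (edgeR adjusted p = 0.000778).

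**Figure D3:**
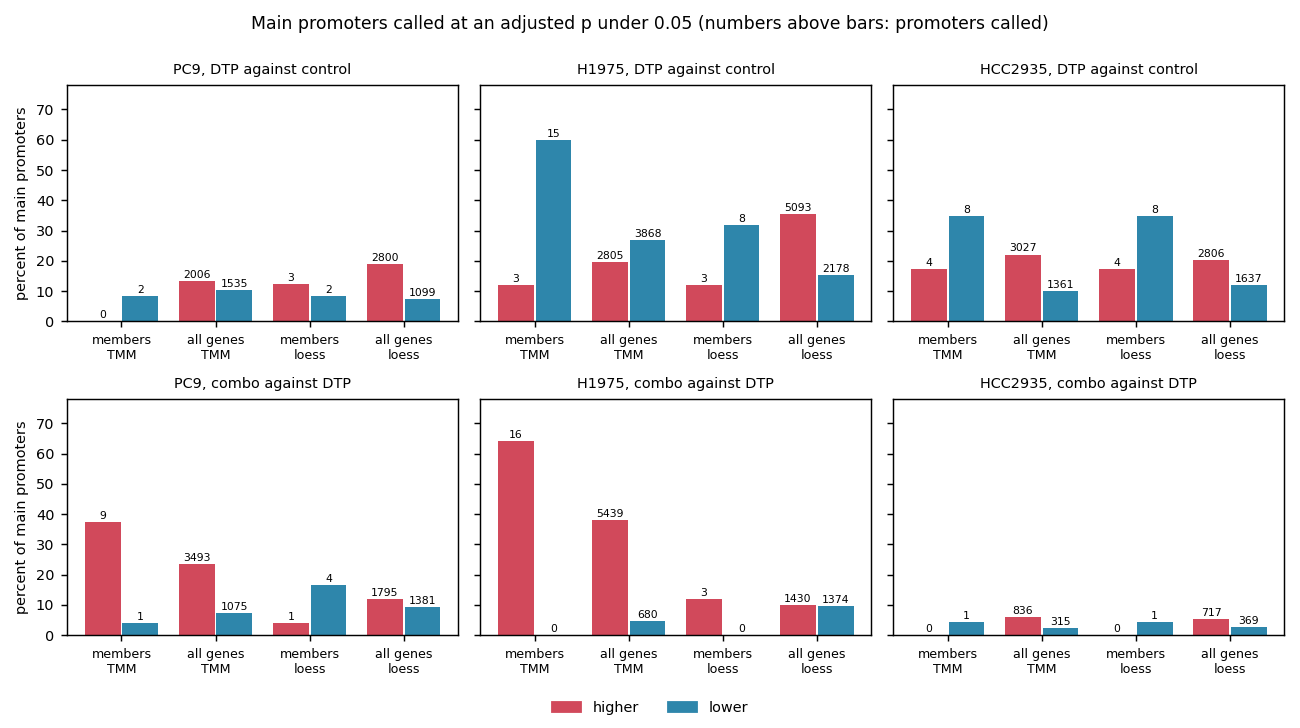
Percent of main promoters higher and lower, members beside all genes, with TMM scaling and with loess offsets, for DTP against control and combo against DTP in 3 lines. In H1975 the share of members higher in combo is 64.0% with TMM (16 of 25), beside 38.0% of all genes, and with loess offsets 3 of 25, beside 10.0%.

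The third comparison was AZD5153 in drug-free cells against control. In PC9, 4 of 24 main promoters were lower and 0 higher, against 13.3% and 7.93% of all genes, and none of the 4 was past the threshold with loess offsets or with libraries summed (all promoter regions then 3.31% higher and 3.75% lower). With loess offsets SC5D alone was past the threshold, at 0.32. The 4 were TM7SF2 at −0.32 ± 0.10, IDI1 at −0.23 ± 0.09, MSMO1 at −0.17 ± 0.07 and HMGCS1 at −0.15 ± 0.06. In the H1975 libraries labelled AZD5153, 7 of 25 were higher and 6 lower, against 41.9% and 25.0%. With loess offsets 13 were higher and 4 lower, against 58.0% and 18.1%, where FDFT1, FDPS, HSD17B7, IDI1, PMVK and SREBF2 joined the higher ones. The rises of DHCR7 (1.33 ± 0.10), FADS1 (1.19 ± 0.10), SREBF1 (0.74 ± 0.09) and SC5D (0.64 ± 0.10) lay in neighbourhoods at 0.74, 0.78, 0.58 and 0.61. ELOVL6 rose by 0.96 ± 0.14 against a neighbourhood at −0.37, and HMGCS1 went from 62.6, 64.7 and 54.9 CPM to 113, 102 and 98.9 CPM, 0.79 ± 0.06, with a neighbourhood at 0.32. STARD4 fell from 36.8, 32.4 and 33.2 CPM to 29.5, 26.3 and 23.6 CPM, −0.37 ± 0.09 (edgeR adjusted p = 0.000118).

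The interaction asked whether the change of combo against DTP differed from that of AZD5153 against control in drug-free cells. Withdrawal of osimertinib, if it took place in combo, enters the interaction too. In PC9, 4 of 24 main promoters had a higher interaction and 2 a lower one, against 13.6% and 3.01% of all genes, and 0 and 2 with loess offsets. In H1975, 13 of 25 were higher and 6 lower, against 29.6% and 21.3%, and 2 and 9 with loess offsets, against 14.9% and 47.5%. At 8 of these 25 the neighbourhood itself was beyond ±0.5. MSMO1 was higher in both lines, by 0.44 ± 0.09 in PC9 and 0.54 ± 0.09 in H1975, and STARD4 in H1975 by 0.95 ± 0.12 (edgeR adjusted p = 6.24e-12). With loess offsets MSMO1 was at 0.05 and 0.12, neither past the threshold, and STARD4 at 0.55 (edgeR adjusted p = 1.44e-05).

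In PC9, H1975 and HCC2935 the largest changes lay away from the promoters, at regions of lower level. Median levels of these regions were 5.29 CPM (PC9), 6.42 (H1975) and 6.48 (HCC2935), against 26.4, 24.2 and 29.5 at main promoters. The part of the level in the size of the changes was not tested. In PC9, 26 of the 45 other member regions were lower in DTP and 2 higher, with a median change of −0.65, against 29.5% and 17.3% of all genes' other annotated regions and a median of −0.15. With libraries summed, 20 were lower and 1 higher, against 17.7% and 11.4%. The mevalonate branch gave 11 of these falls among 16 regions. In H1975, 35 of 57 were lower and 10 higher, against 44.8% and 25.2%, and in HCC2935, 15 of 48 were lower and 12 higher, against 26.4% and 25.4%, both nearer to their background. In combo against DTP, PC9 had 4 of 45 higher and 11 lower (all genes 14.3% and 16.7%), H1975 had 7 of 57 higher and 8 lower (18.5% and 13.0%), and HCC2935 had 0 of 48 higher and 8 lower (2.15% and 13.1%). With AZD5153 in drug-free cells PC9 had 7 of 45 higher and 16 lower (17.1% and 22.4%), and H1975 had 12 of 57 higher and 32 lower (20.4% and 54.1%).

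**Figure D4:**
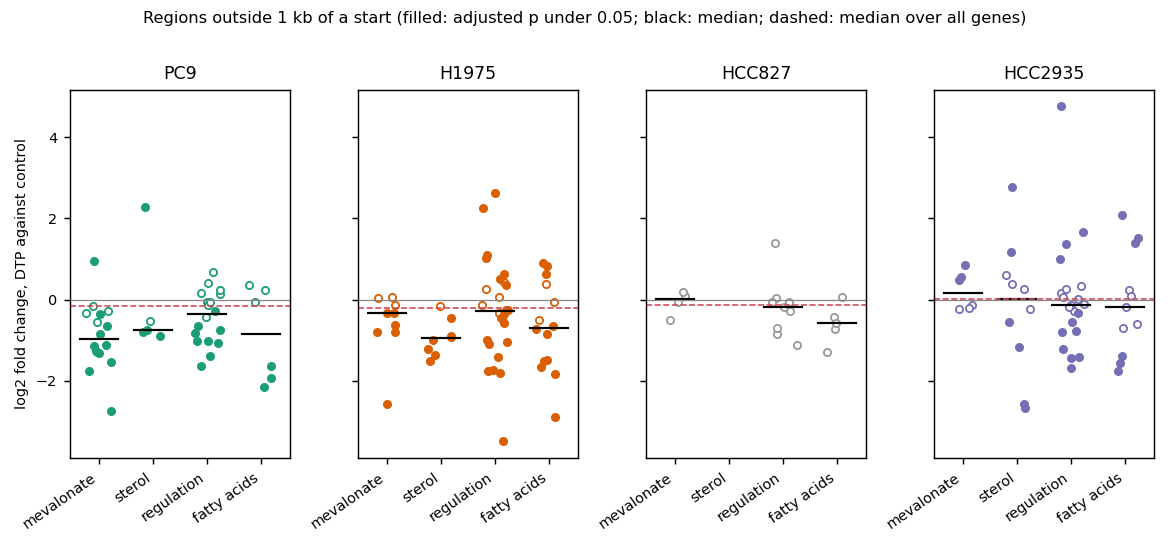
Log2 change in DTP against control of every member region more than 1 kb from a start, by role and line; filled points are past an adjusted p of 0.05, black lines are medians and dashed lines the median of all genes' other annotated regions. In PC9 the members' median is −0.65 and the dashed line lies at −0.15.

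INSIG1, the sterol-dependent brake on SREBP, had a region that was lower in DTP in 3 lines, 6.3 kb upstream of its start at chr7:155290984-155291485 in PC9. It stood at 6.35, 4.56 and 8.68 CPM in PC9 control and at 2.43, 1.80 and 2.00 CPM in DTP, −1.64 ± 0.31 (edgeR adjusted p = 2.32e-06). In H1975 it went from 52.3, 51.7 and 50.02 CPM to 19.6, 21.5 and 16.9 CPM, −1.41 ± 0.08 (edgeR adjusted p = 1.38e-40). In HCC2935 it went from 34.3, 27.5 and 35.1 CPM to 14.8, 14.6 and 12.2 CPM, −1.22 ± 0.15 (edgeR adjusted p = 1.1e-08), in a neighbourhood at −0.81. Every DTP library lay below every control library in these lines. In HCC827 the libraries were separate as well, at 19.9, 21.6 and 32.5 CPM against 13.6, 10.9 and 16.4 CPM, but the change of −0.84 ± 0.37 did not pass (edgeR adjusted p = 0.617). Combo left it low in PC9 (1.71, 0.795 and 3.73 CPM) and HCC2935 (16.0, 14.4 and 12.5 CPM), and in H1975 it rose by 0.29 ± 0.10 to 22.4, 24.4 and 23.9 CPM.

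A region in intron 5 of INSIG1, at chr7:155307042-155307543 in H1975, lost most of its signal in the H1975 libraries labelled AZD5153. It stood at 39.6, 36.7 and 35.6 CPM in control and at 2.97, 2.09 and 3.88 CPM with AZD5153, −3.58 ± 0.14 (edgeR adjusted p = 4.39e-68). In combo it stood at 36.7, 36.7 and 41.9 CPM, level with the 31.1, 38.0 and 32.5 CPM of DTP within the spread, and the interaction was 3.76 ± 0.16. In PC9 the lowest level was in combo: 16.2, 16.0 and 16.9 CPM in control, 12.4, 12.1 and 8.21 CPM with AZD5153, and 2.93, 4.77 and 3.73 CPM in combo, with a combo change of −1.45 ± 0.24 (edgeR adjusted p = 8.18e-08). Whether the lines differ was not tested.

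HMGCS1, the enzyme that makes HMG-CoA, had a region in intron 1, at chr5:43309582-43310083 in PC9, that was low in that line with either drug. It stood at 12.4, 12.7 and 11.2 CPM in PC9 control and at 5.10, 4.90 and 5.01 CPM in DTP (−1.26 ± 0.21, edgeR adjusted p = 1.18e-07). AZD5153 brought it to 0.718, 1.16 and 2.11 CPM (−3.15 ± 0.29, edgeR adjusted p = 1.08e-23) and combo to 1.71, 0.530 and 1.60 CPM (−1.93 ± 0.37 against DTP, edgeR adjusted p = 7.56e-06). In HCC2935 DTP cells it moved the other way, from 2.84, 7.68 and 1.88 CPM in control to 5.70, 6.62 and 9.92 CPM (0.86 ± 0.33, edgeR adjusted p = 0.0354), with overlapping libraries. From there it fell in combo to 0.744, 2.31 and 0.805 CPM, −2.40 ± 0.37 (edgeR adjusted p = 1.28e-05). All combo libraries lay below all DTP libraries in both lines, while the HMGCS1 main promoter in PC9 was higher in combo.

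SREBF2 had a region in its intron 1, at chr22:41863472-41863973 in PC9, that was lost with AZD5153 alone: 5.08, 7.35 and 6.45 CPM in control against 0.718, 1.16 and 0.469 CPM, −2.98 ± 0.38 (edgeR adjusted p = 1.42e-12). In PC9 combo it stood at 4.63, 7.69 and 6.39 CPM, overlapping the 9.23, 8.51 and 7.51 CPM of DTP, and the interaction was 2.53 ± 0.46 (edgeR adjusted p = 4.01e-06). In HCC2935 combo it fell from 7.79, 8.60 and 6.30 CPM to 2.79, 2.59 and 2.01 CPM, −1.60 ± 0.28 (edgeR adjusted p = 8.76e-05).

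A region 2.3 kb upstream of PMVK was lower in combo in 3 lines, with changes of −1.31 ± 0.25 (PC9), −1.23 ± 0.20 (H1975) and −1.36 ± 0.20 (HCC2935). In PC9 it went from 8.26, 11.3 and 7.51 CPM in DTP to 3.17, 4.24 and 3.46 CPM in combo, and AZD5153 alone lowered it as well, by −1.67 ± 0.25 in PC9 and −0.89 ± 0.20 in H1975. A region 1.6 kb upstream of FDFT1 was lower in DTP in 3 lines (PC9 −0.79, H1975 −1.51 and HCC2935 −0.56). In combo it rose by 0.93 ± 0.21 for PC9 and by 0.95 ± 0.17 for H1975, and for HCC2935 it was at −0.46 ± 0.22, not past the threshold.

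**Figure D5:**
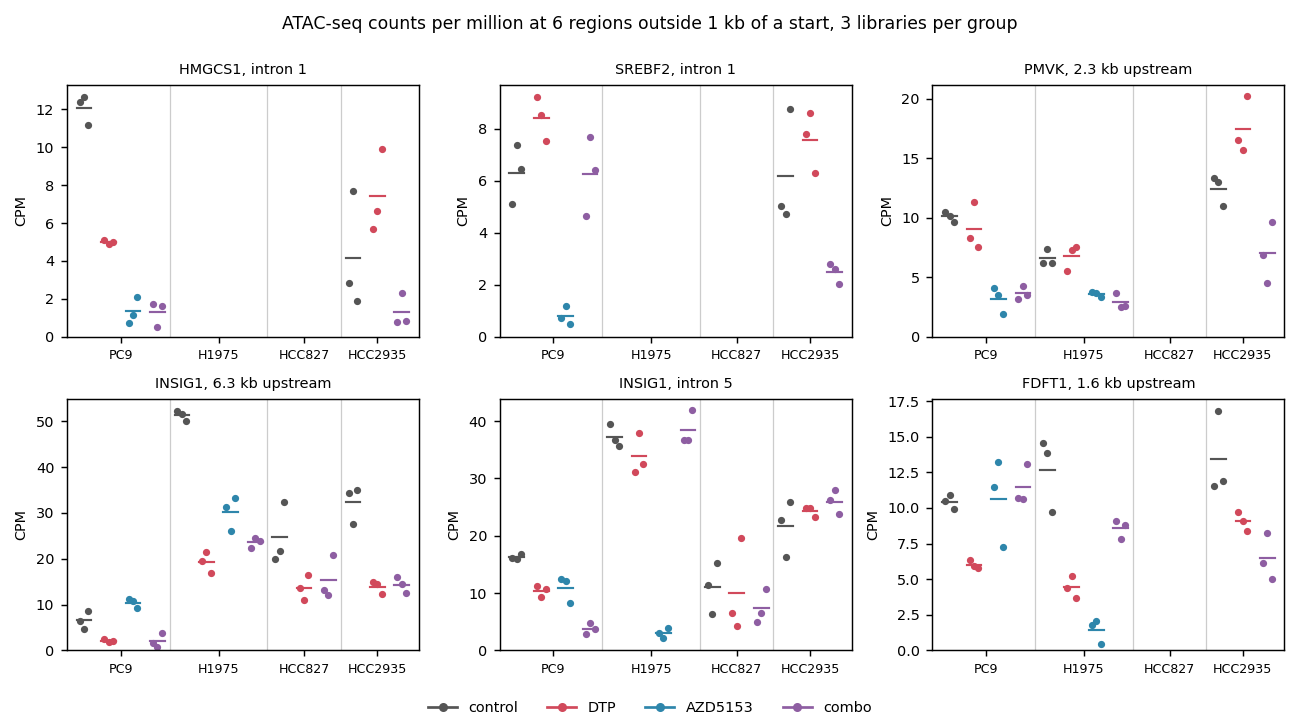
Level in CPM of 6 member regions away from promoters in every library of the lines where they were matched; points are libraries and horizontal lines are group means. The INSIG1 region 6.3 kb upstream lies lower in DTP than in control in all 4 lines, and its change in HCC827 was not past the threshold.

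The largest changes in H1975 lay at intergenic regions assigned to INSIG1. The region 73.1 kb upstream went from 14.999, 12.4 and 12.7 CPM in control to 0.896, 1.36 and 1.23 CPM in DTP (−3.48 ± 0.21, edgeR adjusted p = 8.43e-39) and to 0.516, 1.05 and 1.37 CPM with AZD5153 (−3.73 ± 0.23). The region 39.9 kb upstream went the other way, from 0.309, 0.673 and 0.539 CPM to 2.69, 3.18 and 3.92 CPM in DTP (2.63 ± 0.37, edgeR adjusted p = 1.19e-10) and to 12.4, 10.6 and 11.1 CPM with AZD5153 (4.42 ± 0.28). No control library overlapped either group at these regions, which the rule for naming them required. In PC9 an intergenic region 20.8 kb downstream of the HSD17B7 start rose from 1.91, 1.77 and 0.992 CPM in control to 6.56, 10.1 and 6.26 CPM in DTP, 2.29 ± 0.32 (edgeR adjusted p = 1.11e-10), and AZD5153 alone raised it by 1.94 ± 0.34. In PC9 a region 1.9 kb from a FASN start fell from 5.40, 8.11 and 9.67 CPM to 1.70, 1.80 and 1.75 CPM in DTP, −2.16 ± 0.31 (edgeR adjusted p = 1.94e-10). In H1975 an intronic region 22.7 kb upstream of HMGCS1 fell from 19.2, 18.4 and 21.0 CPM to 3.46, 2.95 and 3.47 CPM in DTP, −2.57 ± 0.15 (edgeR adjusted p = 3.03e-41). In HCC2935 an intronic region 17.6 kb upstream of STARD4 held 2 counts over the 3 control libraries and 91 over the 3 DTP libraries, a ratio of 30.7 after scaling to library size with a counting interval of 8.25 to 257 at 95%. In H1975 the same STARD4 region rose by 1.49 ± 0.22 with AZD5153 and was at 0.43 ± 0.25 in DTP. Of 46 other regions matched in at least 2 lines, 16 were lower in DTP in at least 2, 6 higher, and 3 moved in opposite directions. An H1975 region of ELOVL6 entered the 46 more than once. The share among all genes' matched regions was not counted, so these counts are not read as particular to the members. Of all genes' other annotated regions, 29.5% were lower in PC9, 44.8% in H1975 and 26.4% in HCC2935.

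The counts for 4 lists of neighbouring pathways, 45 genes in all, were read beside those of all promoter regions. Of promoter regions of SREBP processing and transport genes, DTP cells had 2 higher and 4 lower of 16 in PC9 (all promoter regions 15.1% and 11.0%), 5 and 9 of 24 in H1975 (26.8% and 23.1%) and 2 and 2 of 17 in HCC2935 (21.2% and 11.9%). In combo against DTP the same list had 4 higher and 0 lower in PC9 (17.2% and 9.50%), 6 and 2 in H1975 (28.1% and 6.46%) and 1 and 1 in HCC2935 (5.33% and 3.17%). With AZD5153 it had 1 and 3 in PC9 (10.3% and 12.3%) and 11 and 8 in H1975 (43.9% and 24.4%). SCAP, the escort of the SREBP precursors, was lower in H1975 combo by −0.70 ± 0.17 at 1 promoter region (edgeR adjusted p = 0.000877). Acetyl-CoA supply, elongation and glycerolipid genes had 4 higher and 7 lower of 42 in PC9 DTP, 7 and 12 of 33 in H1975 and 9 and 4 of 29 in HCC2935. In combo this list had 5 and 4, 9 and 3, and 0 and 2, and with AZD5153 3 and 6 in PC9 and 16 and 11 in H1975. LPIN1, a phosphatidate phosphatase, was lower at 1 promoter region in H1975, in DTP (−1.94 ± 0.21) and with AZD5153 (−2.79 ± 0.25). That region had a mean of 3.23 CPM. Genes of the sterol-sensing nuclear receptor side had 1 higher and 8 lower of 24 in PC9 DTP, 6 and 4 of 23 in H1975 and 4 and 0 of 13 in HCC2935. In combo they had 3 and 5, 5 and 0, and 1 and 0, and with AZD5153 4 and 6 in PC9 and 18 and 1 in H1975, where RXRA, the shared partner receptor, had the 2 largest rises. Fatty acid oxidation genes had 1 and 1 of 15 in PC9 DTP, 5 and 5 of 18 in H1975 and 3 and 4 of 15 in HCC2935. In combo they had 4 and 0, 5 and 0, and 1 and 1, and with AZD5153 2 and 3 in PC9 and 8 and 5 in H1975. CPT1A, which admits fatty acids to mitochondria, was lower in HCC2935 DTP by −1.79 ± 0.31 at 1 promoter region. In HCC827, 0 promoter regions of these 4 lists were past the threshold in either comparison.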

How the data were processed

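ATAC-seq counts of 42 libraries were analysed. The authors deposited, for each line, raw counts per region of 502 bases on hg38 and an annotated subset, and for each library a peak list with a −log10 q value. The submitters' processing notes name BWA 0.7.17, SAMtools 1.9, deepTools 3.4, MACS2 2.2.6, featureCounts 2.0.0 and ChIPseeker 1.29.1. Each line was fitted in edgeR 4.0.16 (R 4.3.3) by the quasi-likelihood F test with TMM factors, filterByExpr, group means and Benjamini-Hochberg adjustment over the 126506 (PC9), 191202 (H1975), 82309 (HCC827) and 154179 (HCC2935) regions tested. Regions were called at an adjusted p under 0.05. CPM in the text has no prior count.

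DTP changes were compared between lines by heterogeneity Q (chi-square) over regions matched at 50% overlap, since the planned joint limma fit did not pass its self-test. Alternatives were DESeq2 1.42.0, limma 3.58.1 voom, DESeq2 size factors, library size, filters, groups compared, replicate block, leave-one-out, summed libraries, regional medians in 10 Mb bins with at least 50 regions and, added after seeing the data, loess offsets. Same-numbered libraries deviated together in HCC827, with correlations of 0.257 to 0.827, so the block values are given there. For this line the fit with the replicate block called 1 member region in DTP, lower, and 0 in combo, beside 0 and 0 without it.

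Named in full were the 3 largest rises and falls among main promoters called with separate groups. Among other regions they were the 2 largest rises and falls, also called with separate groups, with mean CPM above the median tested region. Separate libraries were thus a condition of these namings and are not added evidence. Also named were members called alike in 2 lines and the 2 largest promoter changes of a list. For the interaction and between lines, the 2 main promoters with the smallest adjusted p were named. A gene that this rule named is not reported here. Other genes, and matched regions of other lines, were named after their values were seen. The members, the 4 pathway lists and the tests were chosen with earlier results of these data known. Promoter sequences and motifs were read from RefSeq (GRCh38.p14).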

Additional observations from a re-analysis of the deposited data

Results flagged for a closer look

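At several main promoters the change of combo against DTP differed from that of AZD5153 against control by the interaction test of edgeR. An effect of osimertinib withdrawal in combo cannot be told apart here. In PC9 the interaction was 0.39 at HMGCS1 (adjusted p = 1.69e-05) and 0.44 at MSMO1 (adjusted p = 9.45e-05). With loess offsets these were −0.065 (adjusted p = 0.667) and 0.05 (adjusted p = 0.815), and with libraries summed their adjusted p was 0.607 and 0.553, so neither call held. At HMGCS1 all 3 combo libraries lay above all DTP libraries, and all 3 AZD5153 libraries below all control libraries. In H1975 it was 0.95 at STARD4 (adjusted p = 6.24e-12) and 0.54 at MSMO1 (adjusted p = 2.45e-07). STARD4 stayed past the threshold with loess offsets (0.55, adjusted p = 1.44e-05) and with libraries summed (adjusted p = 0.00923), and MSMO1 with neither (adjusted p = 0.231 and 0.154). STARD4 rose in combo and fell with AZD5153 alone, each with separate libraries.

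The DTP change differed between the 4 lines at MSMO1 (Q = 39.0, adjusted p = 1.76e-07) and STARD4 (Q = 37.7, adjusted p = 3.26e-07), with all H1975 DTP libraries below the H1975 control libraries at both. Q rests on TMM-scaled estimates and on each line's own spread, which was little more than counting noise in PC9 and H1975. It was computed neither with loess offsets nor with libraries summed.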

How the results depend on the processing

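Counts of member regions past the threshold moved by over 1.5 times as follows. In PC9 the DTP count of 47 became 27 with libraries summed and 10 when regions needed 50 counts on average (mean filter). The combo count of 27 became 12 and 11 under these, and 15 with DESeq2. The AZD5153 count of 36 became 11 and 7, 13 with DESeq2 and 22 with no filter, and the interaction count of 16 became 3 and 8, 7 with DESeq2 and 9 with no filter. In H1975 the DTP count of 83 became 52 with libraries summed and 40 with the mean filter, and the interaction count of 74 became 41 and 44. The combo count of 37 became 4 and 22, 19 with DESeq2, 24 with no filter and 21 with loess offsets, and the AZD5153 count of 78 became 49 with the mean filter. In HCC2935 the DTP count of 46 became 30 with libraries summed and 20 with the mean filter, and the combo count of 9 became 4 with the mean filter. The mean filter tests fewer regions. The cause of the other moves was not tested.

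In HCC827 the DTP count of 0 became 1 with the replicate block. In the other lines same numbers were not taken as pairs, and the block gave 45 in PC9 DTP, 82 in H1975 DTP and 48 in HCC2935 DTP.

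Leaving out 1 library gave 39 to 45 in PC9 DTP, 20 to 23 in combo, 24 to 28 with AZD5153 and 13 to 17 in the interaction. In H1975 it gave 70 to 78, 24 to 32, 73 to 77 and 69 to 77, in HCC2935 32 to 45 in DTP and 6 to 7 in combo, and in HCC827 0 to 0.

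Of 1129 alternative values of the 65 named results, 95 lost the call and 2 reversed. The other 1032 kept the direction and either kept the call or had no adjusted p. HMGCS1 in the PC9 interaction was at −0.065 with loess offsets (edgeR adjusted p = 0.667), and SC5D in HCC2935 DTP was at −0.018 with regional medians removed (edgeR adjusted p = 0.951). HCC827 had the lowest totals and the largest spread between libraries, and their part in its lack of calls was not tested.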
